A study of Caenorhabditis elegans with 6 samples.

Results

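The synaptic vesicle release machinery is described here through 10 genes chosen by name from the 46911 genes counted in whole Caenorhabditis elegans: snb-1, unc-64, ric-4, unc-13, unc-18, unc-10, snt-1, cpx-1, rab-3 and sng-1. The choice followed the genes' known roles, with earlier results of these data known, and all 10 were among the 14506 genes that passed the filter on low counts. The series holds RNA-seq libraries of whole fourth-stage (L4) larvae in 2 groups of 3. The mutant group was strain VC295, which carries the allele unc-30(ok613) on chromosome IV, and it was set against the wild-type strain N2. Both were grown on E. coli OP50 in the same way, with no other treatment. unc-30 encodes a homeodomain transcription factor needed for the identity of the GABAergic D-type motor neurons. The genotype field names the ok613 allele for the N2 libraries as well, so the groups were taken from the strain field. Whether replicates are separate cultures is not stated, so the p-values reflect only the spread between these libraries, which may be technical.

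A synaptic vesicle fuses with the plasma membrane when 3 SNARE proteins, synaptobrevin on the vesicle and syntaxin and SNAP-25 on the target membrane, zip together into a tight bundle. The Sec1/Munc18 protein UNC-18 holds and delivers syntaxin, UNC-13 opens it to make the vesicle ready for release, and RIM (UNC-10) ties vesicles and UNC-13 to the active zone. Synaptotagmin senses the calcium that triggers fusion, complexin clamps and assists the partly assembled bundle, and RAB-3 and synaptogyrin sit on the vesicle membrane. These proteins work in nearly all worm neurons, of which the D-type cells are a small part, and whole-animal RNA adds all neurons and all other tissues together. In such bulk samples fewer cells of a type and less RNA per cell cannot be told apart.

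Total counts were 20188810 to 24498576 in unc-30 mutants and 17318736 to 26377332 in N2 animals. Levels are CPM, each gene's share of its library's reads, adjusted by the trimmed mean of M-values (TMM), whose factors were 0.655 to 0.760 in unc-30 mutants and 1.38 to 1.49 in N2 animals. Scaling by total counts alone therefore moves the median log2 fold change of all tested genes down by 1.01, so each change below is relative to the TMM reference and is also given with total counts where that alters it. On the first principal component mutant replicate 1 and wild type replicate 2 lay nearest the other genotype, at -31.8 and 36.03, against -94.7 and -93.3 for the other mutant libraries and 90.3 and 93.5 for the other wild-type libraries. Counts of unc-30 itself, taken over the whole gene, were 20, 24 and 17 in unc-30 mutants and 23, 26 and 17 in N2 animals. With TMM scaling these were 1.29, 1.40 and 1.29 CPM in unc-30 mutants and 0.586, 1.07 and 0.532 CPM in N2 animals. The groups did not overlap there, and the log2 fold change of 0.88 did not pass (edgeR adjusted p = 0.128). With scaling by total counts it was -0.13 (edgeR adjusted p = 0.791). How much of the gene ok613 removes is not stated in the labels, which leaves these counts no check of the genotype. Markers of muscle, intestine, hypodermis, germline and neurons were all detected, as the label of whole animals implies.

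The release machinery did not move as a block. snb-1 (synaptobrevin) rose 2.14-fold in unc-30 mutants, unc-13 fell 2.67-fold and snt-1 (synaptotagmin) fell 1.79-fold, while the other 7 genes did not pass the test (edgeR quasi-likelihood test, Benjamini-Hochberg adjusted p under 0.05 over all tested genes). Of all tested genes 38.0% passed, 17.1% as higher and 20.9% as lower, so 3 of 10 is near the share of the whole transcriptome. The median log2 fold change of the 10 genes was -0.25, beside -0.10 for all tested genes, and the values ran from -1.42 to 1.10. Groups did not overlap for 7 of the 10 genes, 3 with the mutant higher and 4 with it lower. Over all tested genes the groups did not overlap for 52.6%, with the mutant higher for 24.4% and lower for 28.2%.

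**Figure D1:**
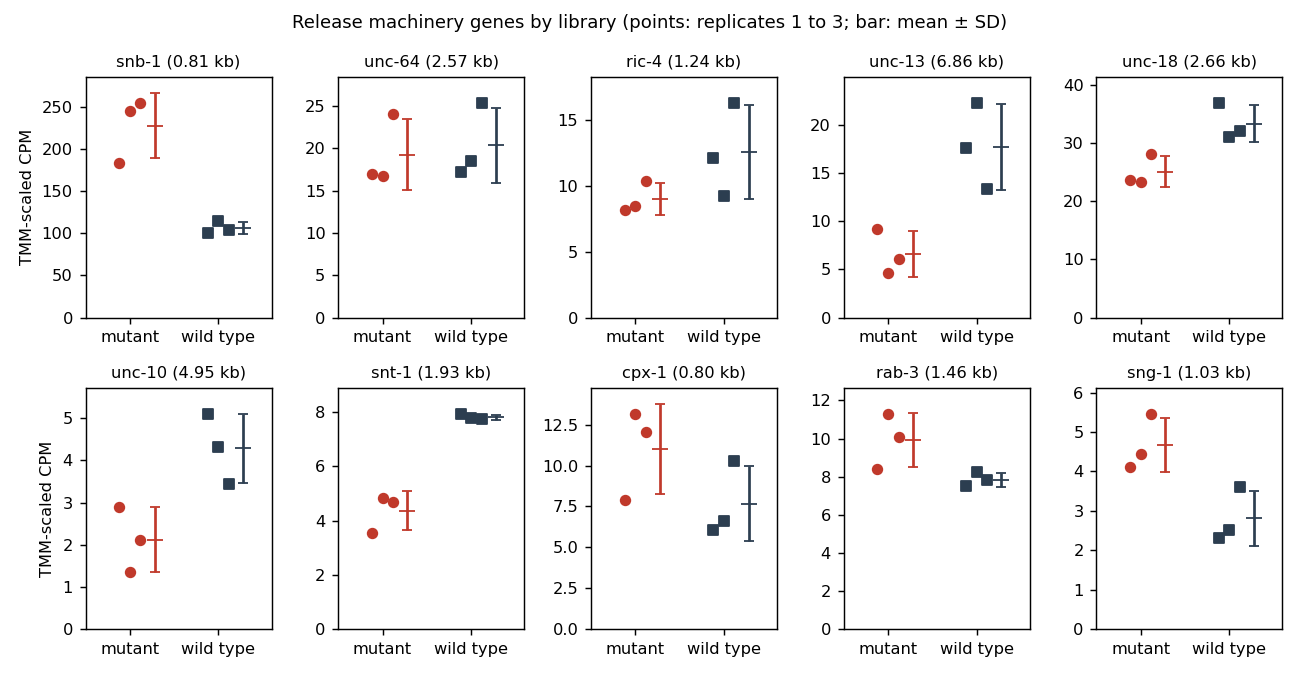
TMM-scaled CPM of each gene in each library, mutant on the left and wild type on the right of each panel, with the mean ± SD beside the points and the exonic length in the title; each vertical axis starts at 0 and has its own scale. snb-1 stands at 184 to 255 CPM in unc-30 mutants and 101 to 114.7 CPM in N2 animals, while unc-13, unc-10, unc-18 and snt-1 have every mutant point below every wild-type point.

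Among the SNARE genes only the vesicle partner passed the test. snb-1 (WBGene00004897, chromosome V, 6655562 to 6656501, minus strand, WBcel235; exonic length 807 bp) encodes synaptobrevin, the SNARE of the vesicle membrane. It had 184, 246 and 255 CPM in mutant replicates 1 to 3, against 101, 114.7 and 104.5 CPM in N2 animals. All mutant libraries were above all wild-type libraries, with mutant replicate 1 the lowest of its group. The means were 228 ± 38.8 CPM in unc-30 mutants and 107 ± 7.16 CPM in N2 animals (SD, n = 3 each), which gave a log2 fold difference of 1.10 ± 0.20 (SE; edgeR adjusted p = 0.00533). The call was kept when any single library was left out (log2 fold change 1.06 to 1.30) and when length trends were removed (0.82, edgeR adjusted p = 0.00893). With scaling by total counts the log2 fold change was 0.07 (edgeR adjusted p = 0.753), so the rise is relative to the TMM reference. On the total-count scale the values were 139, 172 and 167 CPM in unc-30 mutants and 150, 161 and 144 CPM in N2 animals, and the groups overlapped.

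unc-64 and ric-4 encode the target-membrane SNAREs. unc-64 (chromosome III, 13277258 to 13283887, plus strand; 2567 bp), the syntaxin gene, had 16.9, 16.7 and 24.1 CPM in unc-30 mutants, against 17.2, 18.5 and 25.4 CPM in N2 animals. The groups overlapped, replicate 3 was the highest in each, and the log2 fold change was -0.08 ± 0.27 (SE; edgeR adjusted p = 0.831). ric-4 (chromosome V, 10261131 to 10270314, minus strand; 1239 bp), the SNAP-25 gene, had 8.16, 8.47 and 10.4 CPM in unc-30 mutants and 12.2, 9.21 and 16.3 CPM in N2 animals. Mutant replicate 3 exceeded wild type replicate 2, so the groups overlapped, and the log2 fold change was -0.48 ± 0.29 (SE; edgeR adjusted p = 0.218). Scaled by total counts, both passed as lower, at -1.10 for unc-64 and -1.50 for ric-4 (edgeR adjusted p = 0.00767 and 0.00302). A stretch of 64 bp of unc-64 exon overlaps set-25 on the opposite strand, and the labels do not say how the counting treated strand.

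The genes that make vesicles ready for release were lower or did not pass. unc-13 (chromosome I, 7422785 to 7454116, plus strand; 6864 bp, the longest of the 10, with 11 annotated transcripts whose reads are pooled) encodes the priming factor that opens syntaxin. It had 9.26, 4.62 and 6.05 CPM in unc-30 mutants, against 17.6, 22.3 and 13.4 CPM in N2 animals. Every mutant library was below every wild-type library, and mutant replicate 1 was the closest to wild type. The means were 6.64 ± 2.38 CPM in unc-30 mutants and 17.8 ± 4.48 CPM in N2 animals (SD, n = 3 each), which gave a log2 fold difference of -1.42 ± 0.34 (SE; edgeR adjusted p = 0.0136). With length trends removed it was -0.83 (edgeR adjusted p = 0.0369). The gene no longer passed when mutant replicate 2 was left out (-1.15, edgeR adjusted p = 0.0726) or mutant replicate 3 (-1.30, edgeR adjusted p = 0.0712).

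unc-10 (chromosome X, 7272317 to 7280322, minus strand; 4950 bp) encodes RIM, the active zone protein that binds RAB-3. It had 2.89, 1.34 and 2.12 CPM in unc-30 mutants, from 45, 23 and 28 counts, against 5.10, 4.32 and 3.44 CPM in N2 animals, from 200, 105 and 110 counts. The groups did not overlap, but the log2 fold change of -1.02 ± 0.37 (SE) did not pass (edgeR adjusted p = 0.0601). It passed without mutant replicate 1 (-1.25, edgeR adjusted p = 0.0429) and with the replicate number as a block (-1.05, edgeR adjusted p = 0.0396). With length trends removed it was -0.50 (edgeR adjusted p = 0.228). unc-18 (chromosome X, 7682896 to 7686037, plus strand; 2663 bp), which encodes the syntaxin-binding Munc18 protein, had 23.7, 23.4 and 28.2 CPM in unc-30 mutants and 37.0, 31.03 and 32.1 CPM in N2 animals. All mutant values were the lower ones, with mutant replicate 3 the nearest to wild type, and the log2 fold change was -0.41 ± 0.22 (SE; edgeR adjusted p = 0.159). With scaling by total counts it was -1.44, and unc-13 and unc-10 were -2.42 and -2.03, all 3 past the threshold as lower (edgeR adjusted p = 0.00149 to 0.00330).

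The calcium sensor and the clamp had log2 fold changes of opposite sign, and only the sensor passed. snt-1 (chromosome II, 6810963 to 6816433, plus strand; 1925 bp) encodes synaptotagmin, the calcium sensor of fast release. It had 3.54, 4.85 and 4.69 CPM in unc-30 mutants, from 55, 83 and 62 counts, against 7.92, 7.77 and 7.76 CPM in N2 animals, from 311, 189 and 248 counts. The wild-type libraries lay close together and well above every mutant library. The means were 4.36 ± 0.718 CPM in unc-30 mutants and 7.82 ± 0.0906 CPM in N2 animals (SD, n = 3 each), which gave a log2 fold difference of -0.84 ± 0.27 (SE; edgeR adjusted p = 0.0384). This call was at the edge of the threshold. It was lost when any single library was left out (edgeR adjusted p = 0.0565 to 0.127), with length trends removed (0.0699), with the size factors of DESeq2 (0.0537) and with no expression filter (0.0827), while the log2 fold change stayed between -0.86 and -0.64 in these fits. Scaled by total counts it was -1.87 (edgeR adjusted p = 0.00106).

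cpx-1 (chromosome I, 1594649 to 1596216, minus strand; 804 bp, the shortest of the 10) encodes complexin, which holds vesicles back from spontaneous fusion. It had 7.91, 13.1 and 12.03 CPM in unc-30 mutants and 6.06, 6.62 and 10.3 CPM in N2 animals. Wild type replicate 3 lay above mutant replicate 1, so the groups overlapped. The log2 fold change of 0.53 ± 0.32 (SE) did not pass (edgeR adjusted p = 0.226), and it was -0.49 with scaling by total counts.

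The 2 vesicle membrane genes had positive log2 fold changes and did not pass. rab-3 (chromosome II, 5721767 to 5727853, minus strand; 1460 bp) encodes the small GTPase of synaptic vesicles. It had 8.42, 11.3 and 10.1 CPM in unc-30 mutants and 7.49, 8.22 and 7.83 CPM in N2 animals. The groups did not overlap, although mutant replicate 1 was close to the wild-type values, and the log2 fold change was 0.34 ± 0.25 (SE; edgeR adjusted p = 0.309). Short stretches of its exons overlap annotated non-coding RNAs, 85 bp on the opposite and 80 bp on the same strand, and 25 bp overlap damt-1 on the opposite strand. sng-1 (chromosome X, 7327601 to 7329705, plus strand; 1026 bp), the synaptogyrin gene, had 4.11, 4.44 and 5.45 CPM in unc-30 mutants and 2.32, 2.51 and 3.60 CPM in N2 animals. Its groups did not overlap, and the log2 fold change was 0.73 ± 0.32 (SE; edgeR adjusted p = 0.1001). With scaling by total counts rab-3 passed as lower, at -0.68 (edgeR adjusted p = 0.0384), and sng-1 had -0.29 (edgeR adjusted p = 0.421).

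The log2 fold changes of the 10 genes followed their exonic lengths. The 4 genes with positive log2 fold changes, snb-1, sng-1, cpx-1 and rab-3, had exonic lengths of 804 to 1460 bp, and the 2 longest genes, unc-13 and unc-10, had the most negative values. ric-4 was the exception among short genes, with a negative value at 1239 bp. The correlation of log2 fold change with log2 exonic length was r = -0.87 over the 10 genes, -0.73 over the 8 left without unc-13 and unc-10, and -0.84 over the 9 left without snb-1. Over the 14496 tested genes with an annotated length it was -0.20. Genes are not replicates and share their libraries, so these are descriptions.

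The whole transcriptome leaned the same way with length. Split by exonic length into 5 classes of near equal size, tested genes had median log2 fold changes of 0.36 for the shortest class (up to 776 bp), 0.07 (777 to 1166 bp), -0.13 (1167 to 1596 bp), -0.20 (1597 to 2302 bp) and -0.49 for the longest. Against the median of its own length class, snb-1 stood 1.03 higher, sng-1 0.66 higher, rab-3 0.47 higher, cpx-1 0.46 higher and unc-64 0.41 higher on the log2 scale. unc-18 was 0.08 higher, whereas ric-4, unc-10, snt-1 and unc-13 had differences of -0.35, -0.53, -0.64 and -0.93. After removal of the length trend in each library the 10 log2 fold changes ran from -0.83 (unc-13) to 0.82 (snb-1), with a median of 0.046. These 2 genes were the only ones of the 10 called in that fit, in which 17.6% of tested genes were called higher and 20.1% lower. The correlation with log2 length was then -0.72. Ribosomal RNA genes took 7.65% to 12.7% of the counts in unc-30 mutants and 0.394% to 8.20% in N2 animals. Mitochondrial genes took 1.72% to 2.43% in unc-30 mutants and 0.862% to 1.28% in N2 animals, and genes with any count numbered 17088 to 17525 in unc-30 mutants and 18373 to 19477 in N2 animals, so both measures were separated by genotype. The part of these library differences in the length trend and in the changes of the 10 genes was not tested.

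**Figure D2:**
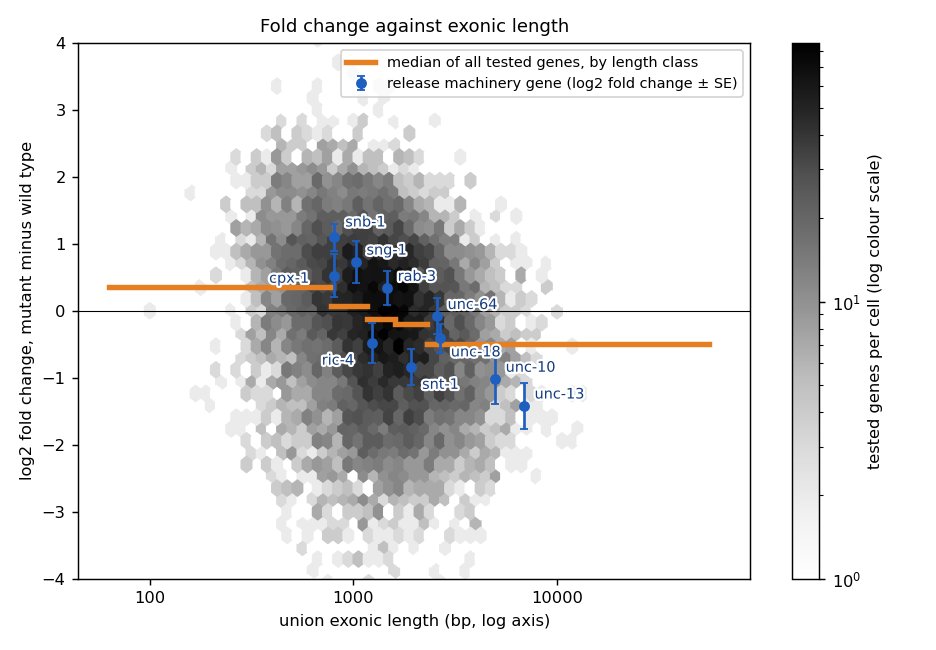
Log2 fold change (mutant minus wild type, vertical) against union exonic length in bp (horizontal, log axis) for 14496 tested genes as grey cells, with the 10 release machinery genes as blue points with their SE and the median of each of 5 length classes in orange; 63 genes lie beyond the vertical axis. The blue points run from snb-1 at 1.10 and 807 bp to unc-13 at -1.42 and 6864 bp, and the orange medians step from 0.36 to -0.49.

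With scaling by total counts alone, 7 of the 10 genes were called lower and 3 did not pass, in a fit where 3.44% of all tested genes were called higher and 56.3% lower. The order of the 10 genes did not change with this scaling, and their spread from lowest to highest was 2.49 on the log2 scale, against 2.51 with TMM. A change of library scaling shifts every gene by nearly the same amount, so the kept order and spread follow from the method and are no test. The signs of sng-1, cpx-1 and rab-3 turned from positive to negative.

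**Figure D3:**
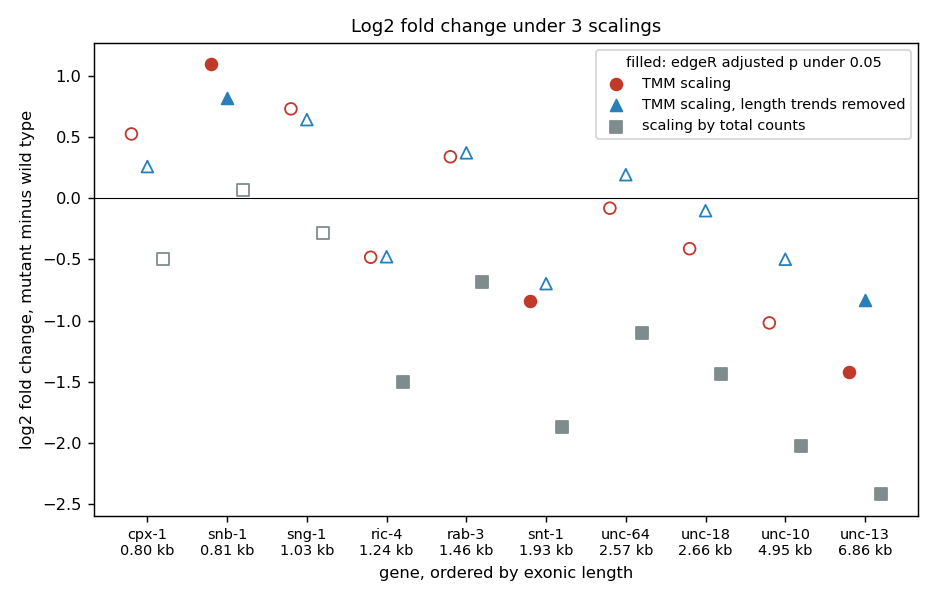
Log2 fold change (mutant minus wild type, vertical) of the 10 genes in order of exonic length, with TMM scaling (circles), TMM scaling with length trends removed (triangles) and scaling by total counts (squares); filled symbols passed edgeR adjusted p under 0.05. Squares sit about 1.01 below the circles for every gene, and unc-13 is the gene that is filled in all 3 scalings.

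Ratios of 2 genes within a library do not depend on scaling between libraries at all. They still carry the length trend, since division by a fixed length cancels between the groups. For 10 pairs of partners the log2 ratio of counts per kilobase was computed in each library. With 3 libraries against 3 the exact two-sided permutation test cannot go below p = 0.10, and adjusted over the 10 pairs the smallest value was 0.167, so no pair can pass. Among the SNARE genes, snb-1 stood 37.9-fold above unc-64 in unc-30 mutants and 16.9-fold above it in N2 animals (geometric means). The log2 ratios were 5.11, 5.55 and 5.07 in unc-30 mutants and 4.22, 4.31 and 3.71 in N2 animals, a difference of 1.16 with no overlap (exact permutation p = 0.10). For snb-1 over ric-4 the difference was 1.53, again with no overlap. The target-membrane partners stayed closer to each other, with ric-4 over unc-64 at a mean log2 ratio of -0.031 ± 0.12 in unc-30 mutants and 0.34 ± 0.26 in N2 animals (SD, n = 3 each) and overlapping groups.

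The largest difference among the 10 pairs was in the mRNA ratio of snt-1 over snb-1. Whole-animal RNA does not show whether transcripts of 2 genes came from the same cells. Every pair that holds snb-1 also carries the change of snb-1, so these pairs are not independent of each other. The log2 ratio of snt-1 over snb-1 was -6.95, -6.92 and -7.02 in unc-30 mutants, against -4.93, -5.14 and -5.004 in N2 animals. The mRNA of snt-1 was thus 3.84-fold scarcer relative to that of snb-1 in unc-30 mutants. The spread within each group was small beside this gap (SD 0.05 in unc-30 mutants and 0.11 in N2 animals, n = 3 each; exact permutation p = 0.10). rab-3 over snb-1 had a difference of -0.75 with no overlap, and sng-1 over snb-1 one of -0.33 with overlap. unc-10 over rab-3, an active zone protein and the vesicle GTPase it binds, had log2 ratios of -3.30, -4.83 and -4.01 in unc-30 mutants and -2.32, -2.69 and -2.95 in N2 animals, a difference of -1.40 with no overlap. unc-13 over unc-64 differed by -1.37, but mutant replicate 1 (-2.29) lay above wild type replicate 3 (-2.34). cpx-1 over unc-64 differed by 0.61 with no overlap, and unc-18 over unc-64 by -0.33 with overlap. No sign among the 10 pairs turned when any single library was left out or a pseudocount of 1 count was added. The ratios were not computed with length trends removed. In that fit the log2 fold changes were -0.70 for snt-1 and 0.82 for snb-1, against -0.84 and 1.10 in the main fit. For unc-10 and rab-3 they were -0.50 and 0.37, against -1.02 and 0.34.

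**Figure D4:**
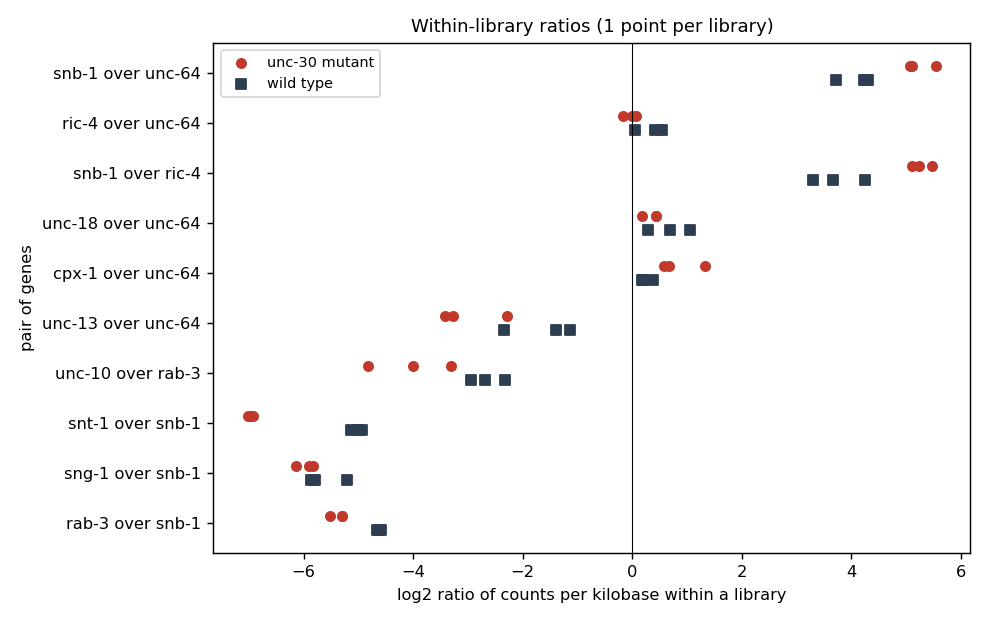
Log2 ratio of counts per kilobase of 2 genes within each library (horizontal) for 10 pairs of release machinery genes (rows), mutant libraries as red circles above wild-type libraries as dark squares. The circles of snt-1 over snb-1 lie at -7.02 to -6.92 and the squares at -5.14 to -4.93, while the groups of ric-4 over unc-64, unc-18 over unc-64, unc-13 over unc-64 and sng-1 over snb-1 overlap.

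Levels compared between genes per kilobase of exon put snb-1 far above its partners in both genotypes. In unc-30 mutants it averaged 282 ± 48.1 CPM per kilobase, followed by cpx-1 (13.7), unc-18 (9.42), unc-64 (7.49), ric-4 (7.26), rab-3 (6.79), sng-1 (4.55), snt-1 (2.26), unc-13 (0.968) and unc-10 (0.428). In N2 animals it averaged 132 ± 8.87 CPM per kilobase, followed by unc-18 (12.5), ric-4 (10.1), cpx-1 (9.53), unc-64 (7.92), rab-3 (5.37), snt-1 (4.06), sng-1 (2.74), unc-13 (2.59) and unc-10 (0.866). Neighbours from cpx-1 to rab-3 in unc-30 mutants, from unc-18 to unc-64 in N2 animals, and sng-1 and unc-13 in N2 animals had overlapping ranges and do not differ beyond their spread. The changes of place among genes with separated ranges were those of snt-1 and sng-1, with sng-1 above snt-1 in unc-30 mutants and snt-1 above sng-1 in N2 animals.

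snb-1 alone made up 68.4% to 73.6% of the summed CPM of the 10 genes in unc-30 mutants and 46.5% to 50.9% in N2 animals. The summed CPM of the other 9 genes was 84.9, 88.2 and 103 in unc-30 mutants and 112.8, 110.4 and 120.1 in N2 animals, with all mutant libraries lower. With snb-1 the sum was 268, 334 and 358 CPM in unc-30 mutants and 214, 225 and 225 CPM in N2 animals, with all mutant libraries higher. Unscaled by TMM, the 10 genes together took 0.0204% to 0.0234% of all counts in unc-30 mutants and 0.0309% to 0.0318% in N2 animals, so the direction of the sum turns with the scaling.

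Regulators around the core machinery were mixed as well. Of 18 genes of SNARE disassembly, release regulation and other synaptotagmins, 5 rose, 2 fell and 11 did not pass (median log2 fold change -0.11). The largest rises were those of the synaptotagmin paralogs snt-6 (log2 fold change 1.99 ± 0.30, SE) and snt-4 (1.41 ± 0.24), and the falls were those of tom-1, the tomosyn that competes with synaptobrevin for syntaxin (-1.15 ± 0.25), and the protein kinase C gene pkc-1 (-0.92 ± 0.27), with edgeR adjusted p = 0.00315, 0.00445, 0.00969 and 0.0293. snt-4 and snt-6 thus moved opposite to snt-1, but each difference between paralogs was not tested. Of the other paralogs, snt-2 (-0.22), snt-3 (-0.34) and snt-5 (-0.25) had the sign of snt-1 and snt-7 (0.62) did not, and none of these passed. tom-1 and pkc-1 did not pass with length trends removed, where their values were -0.62 and -0.45. tom-1 was also lost without mutant replicate 3, and pkc-1 when replicate 2 or 3 of the mutant, or 1 or 3 of wild type, was left out. Under total-count scaling 1 of the 18 rose and 11 fell (median -1.11). The rise was that of snt-6 (0.98, edgeR adjusted p = 0.0184), while snt-4 did not pass (0.38, edgeR adjusted p = 0.187).

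Of 6 tested genes of the RAB-3 cycle, cab-1, a Rab3-pathway gene that interacts with aex-3, rose 2.32-fold, rbg-2, a relative of the Rab3 GTPase-activating complex, fell 3.26-fold and 4 did not pass (edgeR adjusted p = 0.00354 and 0.00551; median -0.47). Of 12 genes of active zone scaffolds and presynaptic assembly 2 fell, unc-16 (1.74-fold), a kinesin adaptor, and lin-10 (1.53-fold), a PDZ scaffold protein, and 10 did not pass (median -0.21). Both falls were lost with length trends removed (log2 fold changes -0.25 and -0.19). The call of lin-10 was also lost whichever single library was left out, and that of unc-16 in each such fit except the one without mutant replicate 1. Of 6 calcium and potassium channel genes of the presynaptic terminal, unc-36, the accessory subunit of the UNC-2 calcium channel, fell 3.07-fold (edgeR adjusted p = 0.00516) and 5 did not pass (median -0.32). Scaled by total counts, 4, 7 and 5 genes of these 3 lists were called lower, none was called higher and cab-1 had 0.19.

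Genes that retrieve and refill vesicles had more rises than falls with TMM, but not with scaling by total counts, where 7 endocytosis genes and 2 loading genes fell. Of 14 tested endocytosis genes, 4 rose, 1 fell and 9 did not pass (median 0.24). aps-2 and clic-1, the clathrin adaptor small subunit and the clathrin light chain, rose 2.02-fold and 1.78-fold, and unc-41, the stonin that recruits synaptotagmin for retrieval, fell 3.32-fold (edgeR adjusted p = 0.0497, 0.0215 and 0.00482). The call of aps-2 sat at the threshold, its groups overlapped, and it did not pass with length trends removed (0.54, edgeR adjusted p = 0.243). Of 6 vesicle loading genes 3 rose and 3 did not pass (median 0.72). The rises included unc-17, the acetylcholine transporter (3.00-fold), and cat-1, the monoamine transporter (2.29-fold). The sign was opposite for unc-46 (log2 fold change -0.79) and unc-47 (-1.12), though neither was called (edgeR adjusted p = 0.233 and 0.113). Under total-count scaling neither unc-17 nor cat-1 passed and the values of aps-2 and clic-1 were -0.017 and -0.20. The call of clic-1 was lost when mutant replicate 2, mutant replicate 3 or wild type replicate 3 was left out, and those of aps-2 and cat-1 with any of these or wild type replicate 1 left out.

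SNARE genes listed for steps outside synapses, such as those of the Golgi, endosomes and secretion, were set beside the synaptic ones. Of 24 tested, 2 rose, 6 fell and 16 did not pass (median -0.48 at a median exonic length of 969 bp, a length at which the transcriptome median was 0.07). The list as compiled also held bet-1, a bromodomain gene in worms and no SNARE, which is left out of these counts. syx-16, a syntaxin of the trans-Golgi, and aex-4, a SNAP-25 homolog of the intestine, fell 3.95-fold and 3.64-fold. nbet-1, a Golgi SNARE, and syx-4, a syntaxin of the plasma membrane, rose 1.79-fold and 1.77-fold (edgeR adjusted p = 0.00384, 0.0112, 0.0290 and 0.0229 in this order); with scaling by total counts both turned, to -0.19 and -0.18, and 20 of the 24 fell. With length trends removed nbet-1 did not pass (0.59, edgeR adjusted p = 0.0756). The call of syx-4 was lost without mutant replicate 2 or wild type replicate 3, and that of aex-4 without mutant replicate 2. Of the 4 other Sec1/Munc18 genes, vps-33.2 fell 2.26-fold (edgeR adjusted p = 0.0239) and 3 did not pass (median -0.12). The calls of vps-33.2 and nbet-1 were each lost when replicate 2 or 3 of the mutant, or 1 or 3 of wild type, was left out. With TMM scaling 19 of the 24 SNARE genes outside synapses had a negative log2 fold change, where the median of all tested genes was -0.10. Of the 3 synaptic SNARE genes, unc-64 (-0.08) and ric-4 (-0.48) were negative too, and snb-1 (1.10) was positive. The difference between the lists was not tested.

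**Figure D5:**
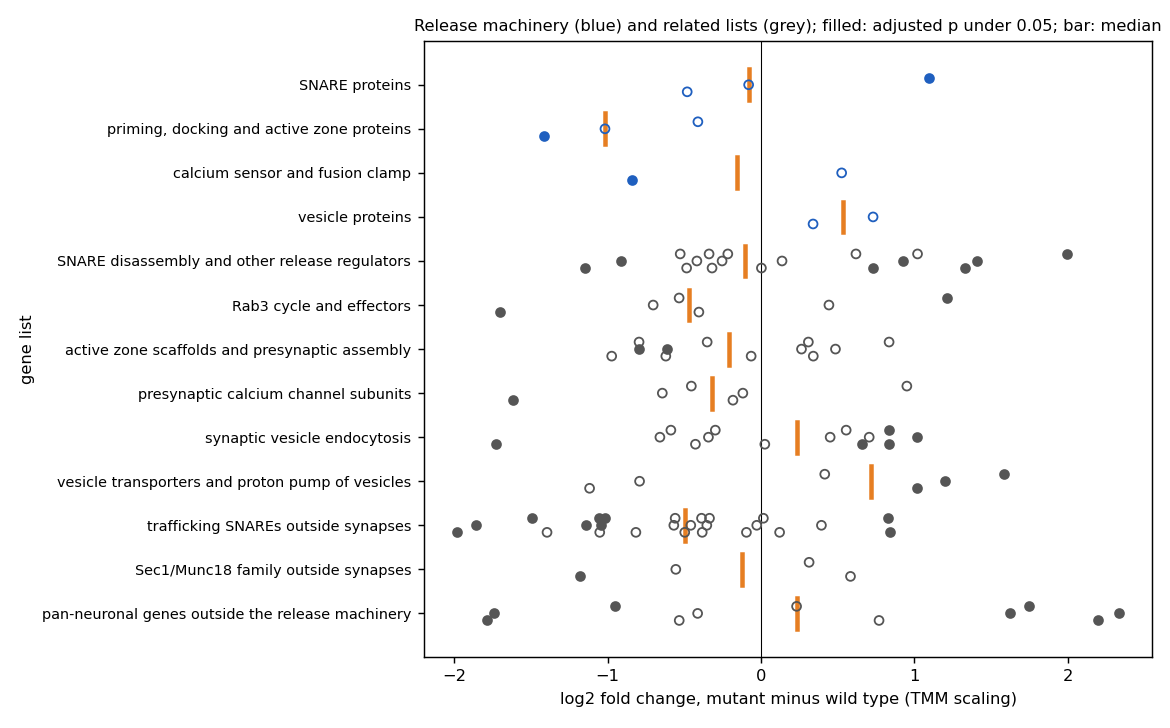
Log2 fold change (mutant minus wild type, TMM scaling, horizontal) of each tested gene in 13 lists (rows), release machinery genes in blue and related lists in grey; filled points passed edgeR adjusted p under 0.05 and the orange bar is the median. The row of trafficking SNAREs, drawn with bet-1, has its median at -0.50, the vesicle loading genes have theirs at 0.72, and the pan-neuronal genes spread from -1.79 to 2.34.

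Pan-neuronal genes outside the release machinery split more widely than the machinery itself. Of 11, 4 rose, 3 fell and 4 did not pass (median 0.23). sbt-1 and egl-21, which serve the processing of neuropeptides in dense core vesicles, rose 5.05-fold and 4.58-fold (edgeR adjusted p = 0.00162 and 0.00204). unc-104, the kinesin that carries synaptic vesicle precursors, was 3.35-fold lower and the macoilin gene maco-1 was 3.45-fold lower (edgeR adjusted p = 0.00778 and 0.0118); maco-1 was lost without mutant replicate 2 or 3. Scaled by total counts, 4 of the 11 rose and 6 fell. The other rises were those of egl-3 (log2 fold change 1.75) and ida-1 (1.62), and the other fall that of ric-3 (-0.96). rgef-1 (-0.41), unc-119 (0.23), ric-19 (-0.53) and unc-33 (0.77) did not pass. The summed CPM of the list was 729 to 920 in unc-30 mutants and 260 to 344 in N2 animals. This sum leans on single genes: egl-21 averaged 265 CPM in unc-30 mutants and 58.0 CPM in N2 animals, and sbt-1 145 and 28.7 CPM.

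With TMM scaling the summed markers of muscle, intestine and hypodermis were higher in unc-30 mutants, while those of the germline overlapped. The summed CPM of 8 body wall muscle markers was 14671 to 20566 in unc-30 mutants and 5659 to 9177 in N2 animals, with 6 of 8 called higher and 1 lower. unc-54 and unc-15 rose 2.56-fold and 2.47-fold, and unc-22, the giant twitchin gene, fell 1.89-fold. With length trends removed unc-22 had -0.19 and did not pass (edgeR adjusted p = 0.506). The summed CPM of 8 intestinal markers was 9244 to 14560 in unc-30 mutants and 2699 to 4097 in N2 animals, with 4 called higher, cpr-1 and asp-1 the most (6.15-fold and 3.89-fold). Much of this sum was asp-1, at a mean of 6513 CPM in unc-30 mutants and 1673 CPM in N2 animals. elt-2 (log2 fold change -0.29), pept-1 (-0.49), ges-1 (0.67) and ifb-2 (0.39) did not pass. Of 6 tested hypodermal markers 2 were called higher, dpy-7 and rol-6 (9.73-fold and 6.11-fold), and the summed CPM was 4324 to 7520 in unc-30 mutants and 1430 to 2645 in N2 animals. Both varied widely between libraries. In N2 animals the SD exceeded the mean, at 26.8 ± 30.8 CPM for dpy-7 and 118 ± 127 CPM for rol-6. In unc-30 mutants they had 260 ± 154 and 720 ± 255 CPM (SD, n = 3 each). sqt-3 (log2 fold change 2.68), wrt-2 (2.23), elt-3 (-0.19) and col-19 (-0.91) did not pass. Of 8 germline markers fog-3 rose 2.06-fold and spe-11 fell 13.5-fold, with summed CPM of 1688 to 2677 in unc-30 mutants and 1720 to 2008 in N2 animals. Calls held in 1 of 6 fits without 1 library for unc-22 and in 2 of 6 for each of dpy-7, rol-6 and fog-3. No matched marker on these lists was at 0 in all libraries. Under total-count scaling no muscle, hypodermal or germline marker kept its call as higher. By tissue, 2 muscle markers fell, 2 intestinal markers rose and 2 fell, 1 hypodermal marker fell and 4 germline markers fell. On that scale unc-54 stood at 0.33, unc-15 at 0.28, fog-3 at 0.024, rol-6 at 1.59 and dpy-7 at 2.24 (log2), none passing. Whether tissue proportions differed, and what part they had in the changes of the release machinery genes, was not tested.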

How the data were processed

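RNA of whole L4 animals was sequenced in 6 libraries, 3 of VC295 and 3 of N2, grouped by the strain label. The deposited values are raw HTSeq counts for each WormBase gene identifier, per the submitters' processing notes. DESeq2 is named there too. The labels give no aligner, build, annotation, strand setting or version. Each file lists 46911 genes and no summary row. Symbols, coordinates (1-based) and union exonic lengths came from Ensembl release 115 of WBcel235, where 46863 identifiers were found.

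All genes were fitted with edgeR 4.0.16 (R 4.3.3): TMM factors, default filter (14506 genes), robust quasi-likelihood F-test, group as the only term, Benjamini-Hochberg adjusted p under 0.05. Fold changes are mutant over wild type. For length trends, a lowess curve (span 0.3) of each library's log2 CPM deviation on log2 exonic length entered as an offset. Fits were tested on simulated counts. The members and lists, compiled from general knowledge, were chosen with earlier results of these data known. Named genes were all 10 members, unc-30 and, for each other list, up to 2 largest rises and 2 largest falls among called genes. bet-1 had been listed as a trafficking SNARE by mistake and is left out of that list's counts in the text, but not of its plot or of the totals over all lists. Of the listed symbols, rab-27, apm-2 and bus-8 had no match. DESeq2 1.42.0, limma-voom (limma 3.58.1), other scalings, no filter, the replicate number as a block and leaving out libraries were alternatives. Replicates differed beyond counting noise (chi-square over its degrees of freedom, 31.9 to 255), and none was counted as a repeat. Depth limits the lowest genes: 3 counts correspond to 0.0764 to 0.227 CPM, for counting error only.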

Additional observations from a re-analysis of the deposited data

How the results depend on the processing

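The count of tested genes called was 5511, and 8668 with scaling by total counts, 2791 to 6154 over single libraries left out (lowest without mutant replicate 3, then 2826 when replicate 2 of that genotype and 3466 when wild type replicate 3 was dropped). Of the 10 release machinery genes 3 were called, against 7 with scaling by total counts, 0 higher and 7 lower there, and 1 to 3 over single libraries left out, with 1 higher and 0 to 2 lower each time. 1 gene in place of 2 was called lower with DESeq2 size factors, with no expression filter and with length trends removed, with or without the replicate block. The median log2 fold change of the 10 genes was -0.25, and -1.27 with scaling by total counts, 0.046 with length trends removed, 0.051 with the replicate block as well, and -0.32 to -0.07 over single libraries left out. DESeq2 and limma-voom called the same numbers as edgeR, 1 higher and 2 lower. Without mutant replicate 1 and wild type replicate 2 together, an alternative chosen after seeing the data, the numbers were also 1 and 2, with unc-10 (-1.28, edgeR adjusted p = 0.0429) in place of snt-1. The other lists had 52 called genes, 82 with scaling by total counts and 24 to 59 over single libraries left out. The number of gene pairs whose ratios did not overlap was 6 of 10, and 6 to 8 over single libraries left out. Smaller groups overlap less easily, so a higher number there is no gain in support. No share was computed for other pairs of genes. For single genes the groups did not overlap in 52.6% of all tested genes.

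Signs turned with scaling by total counts for cpx-1 (-0.49), rab-3 (-0.68), sng-1 (-0.29), unc-30 (-0.13), aps-2 (-0.017), clic-1 (-0.20), nbet-1 (-0.19) and syx-4 (-0.18). The sign of unc-64 turned with length trends removed (0.19, and 0.21 with the replicate block as well) and without mutant replicate 1 (0.08), mutant replicate 2 (0.08) or wild type replicate 3 (0.11), over a range of -0.21 to 0.11 for single libraries left out. The cause of these shifts was not tested. Whether replicate numbers pair the libraries is not stated, and the correlations do not settle it. Same-numbered deviations correlated at 0.46, 0.44 and -0.07. Mutant replicates 1 and 2 each correlated best with the wild-type library of the same number, but mutant replicate 3 did so with wild type replicate 2 (0.33). The replicate block raised the count of called genes to 6943 and that of release machinery genes to 4, by adding unc-10.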
